A study of Mus musculus with 3 samples.

Results

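The MHC class I and peptide loading genes described here are 10 named genes: the light chain gene B2m, the heavy chain genes H2-K1, H2-D1, H2-Q4 and H2-T23, the peptide transporter genes Tap1 and Tap2, the transporter-associated chaperone gene Tapbp, and the immunoproteasome subunit genes Psmb8 and Psmb9. They were taken by symbol from the 30415 gene symbols of the series, and all 10 were read in all 3 libraries. The data are droplet single-cell RNA libraries (10x Genomics 3′ chemistry) of enzymatically digested hearts from NOD/SCID mice, a strain without functional T and B lymphocytes. The mice received an antibody on day 0 and again on day 7, and the hearts were collected on day 14. The library titled PD1/PEM holds 3 pooled hearts of mice given an antibody against PD-1 according to its title, the library titled PDL1/ATZ holds 3 pooled hearts of mice given an antibody against PD-L1 according to its title, and the isotype library holds 3 pooled hearts of mice given a control antibody. The treatment tags name atezolizumab for the PD1/PEM library and pembrolizumab for the PDL1/ATZ library, the reverse of the titles, so the libraries are called by their titles throughout. The age, the sex and the dose are not given in the labels. Each group is 1 library, so no difference between groups has a replicate check, and no p-value is given.

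Class I molecules present peptides from inside the cell to CD8 T cells and are recognised by natural killer cells. Proteasomes cut proteins into peptides, and in the immunoproteasome the subunits encoded by Psmb8, Psmb9 and Psmb10 take the places of those encoded by Psmb5, Psmb6 and Psmb7. TAP carries the peptides into the endoplasmic reticulum, where tapasin, the product of Tapbp, helps to load them on a heavy chain paired with beta-2 microglobulin. In heart tissue endothelial cells and macrophages are known to carry abundant class I molecules and resting cardiomyocytes few, and interferon gamma is the best known inducer of the whole set.

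In GRCm38, the assembly also called mm10, B2m lies on chromosome 2 (122147686 to 122153083) and the other 9 genes lie on chromosome 17. Psmb9 (34181987 to 34187764), Tap1 (34187553 to 34197225), Psmb8 (34197721 to 34201454) and Tap2 (34203527 to 34216321) follow each other, and Psmb9 and Tap1 are on opposite strands and overlap by 212 bases. Tapbp (33915899 to 33929292) and H2-K1 (33996017 to 34000347) lie before this block, and H2-D1 (35262730 to 35267499), H2-Q4 (35379617 to 35385290) and H2-T23 (36029773 to 36032855) lie after it. Words shared with other genes limit how reads can be assigned: 9.49% of the 90-base words in the last 500 bases of the H2-Q4 transcripts and 13.4% in those of H2-T23 also occurred in other genes, mostly in genes that encode no heavy chain; the shares were 0.151% for H2-K1, all with other heavy chain genes, and 0% for H2-D1. NOD mice carry an H2 haplotype that differs from the reference genome, so reads of H2 genes may map less well; its part in the levels was not tested.

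Promoter windows from 250 bases before to 50 bases after the start were found for 9 of the 10 genes in RefSeq (GRCm38.p6). They are shown for 3 heavy chain genes whose ratios to isotype differ from each other below, for B2m, their partner, and for Tap1, which shares 275 bases of its window with Psmb9 read in the other direction. Capitals mark an interferon-stimulated response element (ISRE, GAAA, any 2 bases and GAAA, or a short form, GAA, any 2 bases and GAAA), an NF-kB site (GGGA, any 3 bases and CCC) and the core of the X2 box (TGACGC), each searched on both strands. Adjoining or overlapping NF-kB matches on the 2 strands run together.
H2-K1 (chr17:34000298-34000597, minus strand): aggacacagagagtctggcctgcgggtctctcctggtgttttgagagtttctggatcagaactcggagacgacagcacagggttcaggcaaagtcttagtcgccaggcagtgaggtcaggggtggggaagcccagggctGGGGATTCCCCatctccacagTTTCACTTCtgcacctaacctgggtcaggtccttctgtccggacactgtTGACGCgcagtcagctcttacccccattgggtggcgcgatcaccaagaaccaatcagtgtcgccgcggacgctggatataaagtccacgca
H2-D1 (chr17:35262844-35263143, plus strand): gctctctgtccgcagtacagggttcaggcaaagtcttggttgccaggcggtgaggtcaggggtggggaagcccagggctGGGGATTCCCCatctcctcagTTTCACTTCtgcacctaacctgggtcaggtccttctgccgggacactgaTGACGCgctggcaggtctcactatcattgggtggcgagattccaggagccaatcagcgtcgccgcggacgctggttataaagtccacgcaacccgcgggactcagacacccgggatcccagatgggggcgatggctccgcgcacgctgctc
H2-Q4 (chr17:35379367-35379666, plus strand): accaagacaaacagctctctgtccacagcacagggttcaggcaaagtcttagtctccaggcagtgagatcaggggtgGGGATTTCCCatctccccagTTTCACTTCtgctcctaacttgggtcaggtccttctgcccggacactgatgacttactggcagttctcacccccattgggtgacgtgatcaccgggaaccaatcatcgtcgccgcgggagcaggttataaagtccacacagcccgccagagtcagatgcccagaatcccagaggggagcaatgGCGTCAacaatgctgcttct
B2m (chr2:122147437-122147736, plus strand): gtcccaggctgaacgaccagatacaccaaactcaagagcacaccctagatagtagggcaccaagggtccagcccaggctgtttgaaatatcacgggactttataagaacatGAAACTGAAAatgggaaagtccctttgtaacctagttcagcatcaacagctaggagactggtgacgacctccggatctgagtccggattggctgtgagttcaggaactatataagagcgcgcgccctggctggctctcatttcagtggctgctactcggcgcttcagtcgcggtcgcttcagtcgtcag
Tap1 (chr17:34187306-34187605, plus strand): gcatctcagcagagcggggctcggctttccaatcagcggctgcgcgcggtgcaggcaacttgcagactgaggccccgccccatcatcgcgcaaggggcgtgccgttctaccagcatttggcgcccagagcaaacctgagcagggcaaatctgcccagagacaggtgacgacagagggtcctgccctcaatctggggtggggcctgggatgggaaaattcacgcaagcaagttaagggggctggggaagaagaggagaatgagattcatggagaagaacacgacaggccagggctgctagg
The NF-kB letters were in the windows of H2-K1, H2-D1 and H2-Q4 and in 5.55% of 32851 promoter windows of all genes. The short ISRE was in the same 3 windows, and in 7.52% of all windows; the NF-kB and short ISRE letters were written after these windows had been read. In H2-K1, H2-D1 and H2-Q4 the short ISRE began 90 (in the first of 2 windows), 150 and 153 bases before the start used by RefSeq. The longer ISRE was in the windows of B2m and H2-T23 and in 3.44% of all windows, and the X2 core was in those of H2-K1, H2-D1 and H2-Q4 and in 7.4% of all. In H2-Q4 the X2 letters lie 31 bases after the start. A gamma-activated site (TTC, any 3 bases and GAA) was in the Psmb8 window and in 8.3% of all. A match is a description of letters, not of a bound site.

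Total UMIs were close between the libraries, at 14766346 UMIs in 6388 cells for PD1/PEM, 15144668 UMIs in 11599 cells for PDL1/ATZ and 16677883 UMIs in 9510 cells for isotype. Depth per cell differed, with medians of 2014, 1010 and 1533 UMIs. The PDL1/ATZ library stood apart in other respects. Mitochondrial genes took 7.74% of its UMIs, against 25.9% in PD1/PEM and 25.999% in isotype. It also had 2893 symbols that were read in no other library and lacked 1942 that were read in another one; none of the 10 genes is among these. The PD1/PEM and isotype libraries shared 23 cell barcodes, and PDL1/ATZ shared 0 with isotype. Summed cardiomyocyte markers, which label heart muscle cells, were lower at 26165 and 13285 CPM (UMIs per 1000000 UMIs) in PD1/PEM and PDL1/ATZ, against 34841 CPM in isotype, with 14 of 15 and 15 of 15 markers lower. Summed endothelial markers were 3380 and 5366 CPM against 2848 CPM, with 7 of 10 and 10 of 10 higher. Summed macrophage markers were 532 and 628 CPM against 422 CPM, with 11 of 12 and 12 of 12 higher. Summed fibroblast markers were 2544 and 2153 CPM against 2193 CPM, with 8 of 10 and 3 of 10 higher. Markers of lymphocytes and natural killer cells summed to 12.1 and 14.3 CPM against 7.97 CPM; 3 of 7 and 6 of 7 were higher, Klrb1c was at 0 in PD1/PEM and Cd3d at 0 in PDL1/ATZ, and Cd3e alone held 9.89, 7.66 and 5.52 CPM. Erythroid markers summed to 7141 and 8301 CPM against 3930 CPM, with 4 of 4 and 3 of 4 higher. All these counts of markers were made on all UMIs, where the median log2 ratio to isotype of all genes counted was 0.59 in PDL1/ATZ. On all UMIs the PDL1/ATZ sums over isotype were 0.381, 1.88, 1.49, 0.982, 1.79 and 2.11, in the order above. Without mitochondrial UMIs in the totals they were 0.306, 1.51, 1.19, 0.788, 1.43 and 1.69. The part of these shifts in the levels below was not tested, and in sums over all cells fewer cells of a type and less RNA per cell cannot be told apart.

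B2m was the most abundant of the genes by UMIs in each library, and Psmb9 the least. The 10 genes together held 1312 CPM in PD1/PEM, 1781 CPM in PDL1/ATZ and 1369 CPM in isotype. Intervals here and below are exact 95% intervals for counting error only, in which spread between hearts has no part. Summed levels had a ratio to isotype of 0.958 (0.940 to 0.976) for PD1/PEM and 1.30 (1.28 to 1.32) for PDL1/ATZ. Both ratios use the same isotype library. On totals without mitochondrial UMIs the sums were 1771, 1930 and 1850 CPM, so that the 3 libraries lay closer together.

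**Figure D1:**
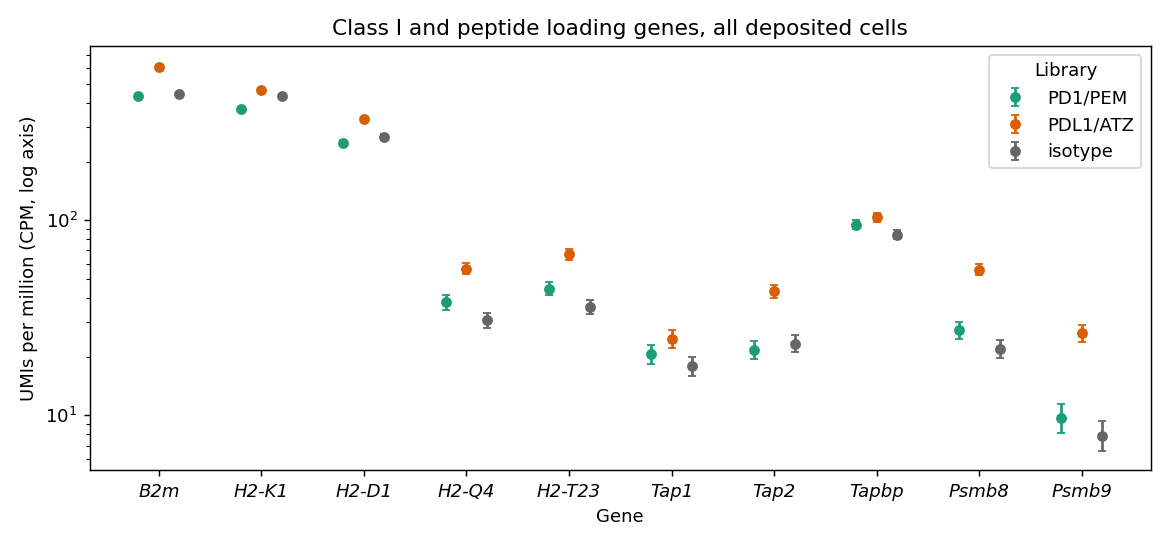
Level of each of the 10 genes over all cells, in CPM on a log axis, in the PD1/PEM, PDL1/ATZ and isotype libraries; bars are exact 95% intervals for counting error. PDL1/ATZ was highest for all 10 genes on this scale, and H2-K1, H2-D1, B2m and Tap2 were lower in PD1/PEM than in isotype.

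B2m, which encodes the light chain common to all class I molecules, had 433 CPM in PD1/PEM, 611 CPM in PDL1/ATZ and 445 CPM in isotype. H2-K1, a classical heavy chain gene, had 372, 464 and 435 CPM in the same order of libraries. H2-D1, the other classical heavy chain gene, had 250, 330 and 267 CPM. PDL1/ATZ was the highest for each, and PD1/PEM the lowest. H2-Q4 and H2-T23, nonclassical heavy chain genes, had fewer UMIs and another ranking. H2-Q4 had 37.9 CPM in PD1/PEM, 56.5 CPM in PDL1/ATZ and 30.8 CPM in isotype. H2-T23, whose product (Qa-1) presents leader peptides of other class I chains to natural killer cell receptors, had 44.5, 66.8 and 36.0 CPM. For both, isotype was the lowest.

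Of the transporter subunits, Tap1 had 20.6 CPM in PD1/PEM, 24.7 CPM in PDL1/ATZ and 17.9 CPM in isotype. Tap2 had 21.7, 43.2 and 23.3 CPM. The subunits form 1 heterodimer, yet the Tap2 level stood apart in PDL1/ATZ while the Tap1 level did not to the same degree. Tapbp had 95.1, 103 and 84.2 CPM. Psmb8 had 27.2 CPM in PD1/PEM, 55.8 CPM in PDL1/ATZ and 21.9 CPM in isotype, and Psmb9 had 9.68, 26.4 and 7.86 CPM. PDL1/ATZ was the highest for both proteasome subunits, and isotype the lowest. UMIs of different genes are not compared here as molecule numbers, since capture at the 3′ end differs between genes.

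In PD1/PEM against isotype, H2-K1 and H2-D1 were lower, with ratios of 0.854 (0.824 to 0.885) for H2-K1 and 0.934 (0.894 to 0.976) for H2-D1, and B2m was at 0.975 (0.943 to 1.01). H2-Q4 at 1.23 (1.09 to 1.39), H2-T23 at 1.23 (1.10 to 1.38), Psmb8 at 1.24 (1.07 to 1.43) and Tapbp at 1.13 (1.05 to 1.22) were higher. Psmb9 was at 1.23 (0.966 to 1.57), Tap1 at 1.15 (0.979 to 1.36) and Tap2 at 0.932 (0.801 to 1.08). Other genes of the same roles lay on both sides of 1, each with an interval that included 1. The third immunoproteasome subunit gene, Psmb10, was at 0.885 (0.748 to 1.05). Other nonclassical chain genes were named after their values were seen. Of these, H2-T22 was at 0.830 (0.621 to 1.11), H2-M3 at 0.981 (0.726 to 1.32) and H2-Q6 at 0.983 (0.851 to 1.14). H2-Q7 was at 1.10 (0.906 to 1.33) and H2-T24 at 1.18 (0.873 to 1.60). The intervals of B2m, Tap1, Tap2 and Psmb9 included 1, and at this depth a difference was not detectable for them. None of the 10 genes reached a ratio of 1.5 in either direction, the fold used here for counting; of the 14748 genes with at least 50 UMIs over the 2 libraries, 5.51% reached that fold upward and 4.57% downward. The median log2 ratio was 0.19 over the 10 genes and 0.01 over all genes counted. Tapbp was lower rather than higher, at 0.942, in the cells that passed a filter (a floor of 200 genes and a ceiling of 25% mitochondrial UMIs). The median cell had 26.9% mitochondrial UMIs in PD1/PEM, 27.1% in isotype and 8.04% in PDL1/ATZ. The ceiling thus lies below the median cell of PD1/PEM and of isotype, but above that of PDL1/ATZ.

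In PDL1/ATZ against isotype, all 10 ratios were above 1 on totals of all UMIs. Psmb9 had the highest at 3.36 (2.75 to 4.13), followed by Psmb8 at 2.54 (2.25 to 2.88). Tap2, H2-T23 and H2-Q4 lay together at 1.86 (1.63 to 2.11), 1.85 (1.67 to 2.05) and 1.84 (1.64 to 2.05). Tap1 at 1.38 (1.18 to 1.61), B2m at 1.37 (1.33 to 1.42), H2-D1 at 1.23 (1.18 to 1.28), Tapbp at 1.23 (1.14 to 1.32) and H2-K1 at 1.07 (1.03 to 1.10) were closer to isotype. Thus 5 of the 10 genes reached 1.5-fold upward, but so did 50.7% of 16373 genes, and 6.64% reached it downward; the count of 5 is near this background. The median log2 ratio was 0.67 over the 10 genes and 0.59 over all genes counted.

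Without mitochondrial UMIs in the totals, 2 of the 10 genes were at least 1.5-fold higher, Psmb9 at 2.70 and Psmb8 at 2.04, where 32.3% of 16360 genes were. On this scale H2-K1 was lower in PDL1/ATZ at 0.855, H2-D1 was at 0.988, Tapbp at 0.985 and B2m at 1.10, and the median log2 ratio was 0.35 over the 10 genes and 0.28 over all. The order of the genes is the same on both scales, since a scale moves all ratios by 1 factor. The direction of H2-K1, H2-D1 and Tapbp therefore depends on the total used, and that of B2m and Tap1 did too with size factors set by the median gene, which gave 0.894 and 0.900. Psmb8 and Psmb9 were above isotype on each of these scales.

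**Figure D2:**
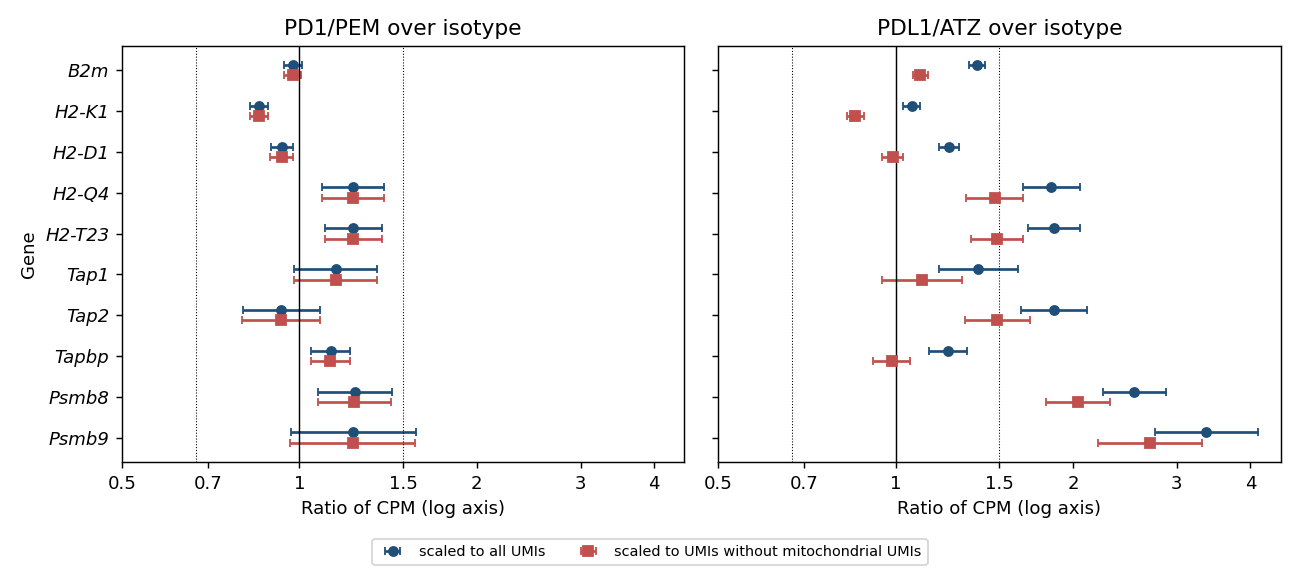
Ratio of CPM in PD1/PEM (left) and PDL1/ATZ (right) to isotype for the 10 genes on a log axis, with totals of all UMIs (circles) and without mitochondrial UMIs (squares); bars are exact 95% intervals for counting error and dotted lines mark 1.5-fold. The scales coincide for PD1/PEM and differ for PDL1/ATZ, where Psmb8 and Psmb9 lie past 1.5-fold on both.

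Ratios between genes of 1 library do not need a total and so are free of this choice. They still depend on the gene models used for counting, and PDL1/ATZ differed in the symbols read, as given above. The part of gene models in these ratios was not tested. Psmb8, whose product takes the place of the Psmb5 product in the immunoproteasome, had 1.19 (1.03 to 1.38) UMIs per UMI of Psmb5 in PD1/PEM, 1.18 (1.07 to 1.31) in PDL1/ATZ and 0.704 (0.614 to 0.806) in isotype. The ratio of Psmb8 to Psmb5 was thus 1.69 (1.39 to 2.06) and 1.68 (1.42 to 1.98) times that of isotype. In PD1/PEM the constitutive subunit contributed, since Psmb5 itself was at 0.734 (0.638 to 0.844) of its isotype level, Psmb6 at 0.792 (0.703 to 0.891) and Psmb7 at 0.793 (0.704 to 0.894). In PDL1/ATZ these levels were at 1.52, 1.46 and 1.24 of isotype on all UMIs and at 1.22, 1.17 and 0.992 without mitochondrial UMIs, so that the direction of Psmb7 depends on the total.

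Psmb9 had 0.299 UMIs per UMI of Psmb6 in PD1/PEM, 0.441 in PDL1/ATZ and 0.192 in isotype, which is 1.56 (1.20 to 2.03) and 2.30 (1.84 to 2.86) times isotype. For Psmb10 over Psmb7 the ratios were 0.540, 0.680 and 0.484, which is 1.12 (0.912 to 1.37) and 1.40 (1.18 to 1.67) times isotype. Over all cells, all 3 immunoproteasome subunits were thus higher against their partners in PDL1/ATZ, and in PD1/PEM Psmb8 and Psmb9 were. Whether these ratios differed within cells of a type was not tested, and values by cell group are given below. In the cells that passed the filter on genes and mitochondrial UMIs, PD1/PEM had 0.219 for Psmb9 over Psmb6 and 0.439 for Psmb10 over Psmb7, against 0.202 and 0.484 in isotype, while Psmb8 over Psmb5 was 1.20 against 0.767. In PD1/PEM the Psmb9 ratio was thus near that of isotype in the cells left by this filter, from fewer UMIs, and the Psmb8 ratio was not. The PDL1/ATZ ratios in these cells were 1.18, 0.442 and 0.682.

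**Figure D3:**
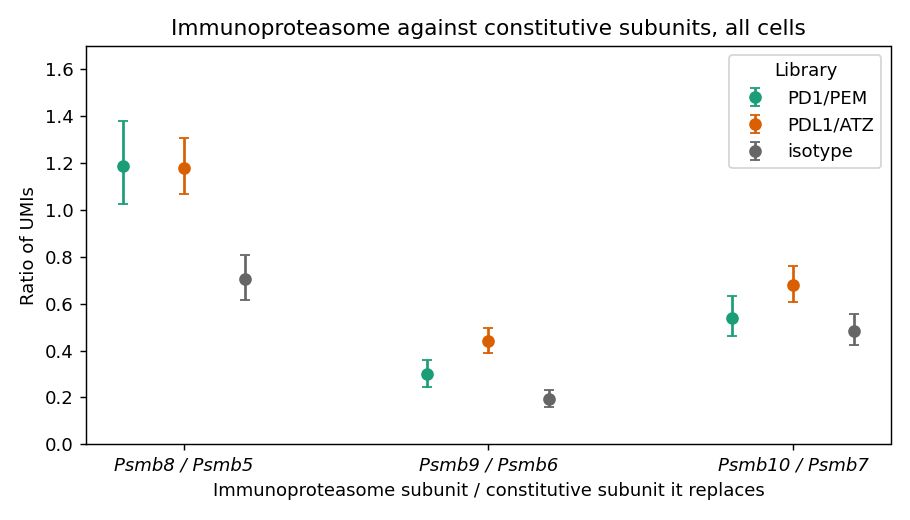
UMIs of each immunoproteasome subunit over those of the constitutive subunit it replaces, over all cells of the PD1/PEM, PDL1/ATZ and isotype libraries; bars are exact 95% intervals for counting error. For Psmb8 over Psmb5 PD1/PEM and PDL1/ATZ are at 1.19 and 1.18 against 0.704 in isotype, and for Psmb10 over Psmb7 the PD1/PEM and isotype intervals overlap.

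H2-K1 made up less of the class I transcripts in each antibody library than in isotype, the library that both are set against. H2-K1 had 0.858 (0.827 to 0.889) UMIs per UMI of B2m in PD1/PEM, 0.759 (0.736 to 0.783) in PDL1/ATZ and 0.979 (0.948 to 1.01) in isotype. H2-D1 per UMI of B2m was 0.576, 0.540 and 0.602, a smaller difference. Summed UMIs of the 4 heavy chain genes per UMI of B2m were 1.62 in PD1/PEM, 1.501 in PDL1/ATZ and 1.73 in isotype. Among the 4 heavy chain genes H2-K1 held 52.8% (51.8 to 53.8) in PD1/PEM, 50.6% (49.8 to 51.4) in PDL1/ATZ and 56.6% (55.7 to 57.4) in isotype. H2-D1 held 35.5%, 36.0% and 34.8%. The balance went to the nonclassical genes, with 5.39%, 6.16% and 3.997% for H2-Q4 and 6.32%, 7.29% and 4.68% for H2-T23. The H2-K1 to H2-D1 ratio was 0.915 (0.865 to 0.967) and 0.865 (0.821 to 0.911) times that of isotype.

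Tap1 and Psmb9, which share most of a promoter window, had another proportion in PDL1/ATZ than in isotype. Psmb9 had 0.470 (0.383 to 0.576) UMIs per UMI of Tap1 in PD1/PEM, 1.07 (0.927 to 1.23) in PDL1/ATZ and 0.440 (0.355 to 0.542) in isotype. The PDL1/ATZ ratio was 2.43 (1.90 to 3.12) times that of isotype, and the PD1/PEM ratio 1.07 (0.804 to 1.42) times. The annotation behind each library is not given in the sources used here, and the part of gene models, which also set how the 212 overlapping bases are counted, was not tested. For Psmb8 per UMI of Tap2, the neighbours on the other side of the block, the values were 1.26, 1.29 and 0.943, and both antibody libraries lay above isotype, at 1.33 (1.09 to 1.63) and 1.37 (1.15 to 1.63) times.

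Of 35 other genes of the pathway, chosen for function, 33 are among the symbols of the series. In PD1/PEM 29 had at least 50 UMIs over both libraries, of which 1 reached 1.5-fold upward and 0 downward, with a median log2 ratio of -0.09. The 1 gene was Rfx5, a subunit of the RFX factor that binds the X1 box of class I and class II promoters, with 5.89 CPM in PD1/PEM against 3.48 CPM in isotype, a ratio of 1.69 (1.20 to 2.40). The next were H2-T24 at 1.18 and the gene of the nonclassical molecule that presents vitamin B metabolites, Mr1, at 1.15, both with intervals that included 1. At the low end stood Psmb5, Psmb6 and the lipid-presenting Cd1d1 at 0.734 (0.430 to 1.23). Nlrc5, the transactivator of class I promoters, was at 22.8 CPM in PD1/PEM against 22.6 CPM in isotype, a ratio of 1.01 (0.866 to 1.17).

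In PDL1/ATZ 14 of 30 pathway genes reached 1.5-fold upward and 0 downward, beside the background of 50.7% and 6.64% given above; without mitochondrial UMIs the counts were 5 and 3, beside 32.3% and 11.6%. The highest ratio was that of H2-T3, the gene of the thymus leukaemia antigen, with 45 UMIs in PDL1/ATZ against 7 in isotype, 7.08 (3.17 to 18.6) after scaling. H2-Q7, a Qa-2 gene, was at 40.3 CPM against 13.2 CPM, a ratio of 3.05 (2.61 to 3.58), and H2-Q6 at 53.7 CPM against 24.6 CPM, a ratio of 2.18 (1.94 to 2.46). The split between H2-Q6 and H2-Q7 is uncertain, since 26.9% and 4.73% of their 90-base words at transcript ends were shared with other genes. At the low end were the chaperones of the endoplasmic reticulum. Calr had 124 CPM in PDL1/ATZ against 184 CPM in isotype, a ratio of 0.675 (0.637 to 0.715). Canx was at 0.711 and Pdia3 at 0.776, and Tapbp, which works with Pdia3 and Calr in the loading complex, was at 1.23. Nlrc5 was at 36.8 CPM against 22.6 CPM, a ratio of 1.63 (1.43 to 1.86). These ratios are on all UMIs, where the median log2 ratio over all genes counted was 0.59. Without mitochondrial UMIs, where that median was 0.28, Calr was at 0.541, Canx at 0.571, Pdia3 at 0.623, Tapbp at 0.985 and Nlrc5 at 1.31. H2-T3, H2-Q7 and H2-Q6 were at 5.68, 2.45 and 1.75 on that scale.

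To see where the genes were read, cells were grouped by markers. The count of distinct markers was the first rule chosen. Genes of a class that had not been used for the rule, such as Cldn5 and Cd36 for endothelial cells, had a median ratio to other cells of 1.05 in its endothelial class, 1.36 in its fibroblast class and 6.05 in its macrophage class, which held 18, 35 and 23 cells of PD1/PEM, PDL1/ATZ and isotype. Its cardiomyocyte class held 2, 18 and 33 cells. Cells were then grouped by an excess of markers, at least 5 marker UMIs of a class and at least 2 times their share in the library, a rule picked after the levels of the 10 genes under several such cutoffs had been seen. Held-out genes then had median ratios of 3.78 in the macrophage-enriched cells and 1.88 in the fibroblast-enriched cells, but 1.16 in the endothelial-enriched cells, so that this name stands for the rule alone. In the cardiomyocyte-enriched cells, the held-out genes of the endothelial, macrophage and fibroblast classes had medians of 0.549, 0.470 and 0.597, but the fibroblast gene Lama2 was higher there in PD1/PEM, PDL1/ATZ and isotype, at 1.57, 1.30 and 1.47, and the macrophage gene Lgmn was at 1.01 in PDL1/ATZ. Markers of every class were read in all groups, and the part of free RNA and of doublets was not tested.

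The 10 genes together were lower in cardiomyocyte-enriched cells than in the other cells in 3 of 3 libraries. Their sum was 723 CPM in 98 cells of PD1/PEM, against 1329 CPM in the other cells, a ratio of 0.544 (0.484 to 0.610). In PDL1/ATZ it was 1124 CPM in 184 cells against 1798 CPM, a ratio of 0.625 (0.567 to 0.687). In isotype it was 604 CPM in 15 cells against 1371 CPM, a ratio of 0.441 (0.282 to 0.656), from 24 UMIs. Held-out endothelial, macrophage and fibroblast genes had medians of 0.549, 0.470 and 0.597 in the same cells. The lower level there is thus not particular to the 10 genes. B2m in these cells was at 0.521, 0.617 and 0.509 of its level in other cells in PD1/PEM, PDL1/ATZ and isotype, H2-K1 at 0.525, 0.607 and 0.578, and H2-D1 at 0.631, 0.643 and 0.282. These cells were deeper than most, with medians of 4291, 1608 and 2526 UMIs per cell, their mitochondrial UMIs were 20.2%, 7.28% and 16.3%, and 181, 371 and 83 cells lay within 1.8 to 2.2 times the library share, the neighbourhood of the cutoff. At a cutoff of 3 times the PDL1/ATZ ratio was 0.453. The cardiomyocyte class by marker counts did not show this difference: its ratios were 2.94 (0.956 to 6.87) from 5 UMIs in PD1/PEM, 0.914 (0.573 to 1.38) from 22 UMIs in PDL1/ATZ and 0.757 (0.475 to 1.15) from 22 UMIs in isotype, each with an interval that included 1.

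The other groups lay closer to their libraries than the cardiomyocyte-enriched cells did, though some intervals lay above 1. Endothelial-enriched cells had 1.23 (1.12 to 1.36), 1.02 (0.942 to 1.10) and 1.12 (1.03 to 1.21) times the summed level of other cells in PD1/PEM, PDL1/ATZ and isotype. At a cutoff of 3 times the endothelial-enriched ratio was higher in each library, with the values given in the last section. Macrophage-enriched cells had 1.12 (1.05 to 1.20), 0.961 (0.896 to 1.03) and 1.07 (0.980 to 1.17) times, and fibroblast-enriched cells 1.07, 0.984 and 1.03 times. The macrophage-enriched cells of PD1/PEM had more Psmb8, at 44.6 CPM against 26.4 CPM in its other cells, a ratio of 1.69 (1.11 to 2.46) from 29 UMIs, a value picked out after it had been seen; in PDL1/ATZ the same ratio was 0.704 (0.422 to 1.11) and in isotype 1.21 (0.548 to 2.32). Between libraries, the summed level in PD1/PEM over isotype was 1.06 in endothelial-enriched, 0.998 in macrophage-enriched and 0.996 in fibroblast-enriched cells, each with an interval that included 1. In PDL1/ATZ over isotype it was 1.19, 1.17 and 1.24 on all UMIs and 0.933, 0.929 and 1.004 without mitochondrial UMIs. The log2 values of these sums were 0.25, 0.22 and 0.32 on all UMIs. The median log2 ratio of all genes with at least 10 UMIs was 0.41, 0.44 and 0.44 there. Without mitochondrial UMIs that median was 0.07, 0.11 and 0.13. In cardiomyocyte-enriched cells the summed level over isotype was 1.20 (0.790 to 1.90) in PD1/PEM and 1.86 (1.23 to 2.94) in PDL1/ATZ on all UMIs. Both are set against the 24 UMIs of isotype. Without mitochondrial UMIs these ratios were 1.26 (0.828 to 1.99) and 1.68 (1.11 to 2.65). The median log2 ratio of all genes counted in these cells of PDL1/ATZ was 0.22 on all UMIs and 0.08 without mitochondrial UMIs. The share of H2-K1 among the heavy chains in PD1/PEM was 50.6%, 53.6%, 51.7% and 49.3% in cardiomyocyte-, endothelial-, macrophage- and fibroblast-enriched cells, close to the 52.8% of all its cells. Psmb8 over Psmb5 in endothelial-, macrophage- and fibroblast-enriched cells was 0.667, 1.93 and 1.07 in PD1/PEM. It was 1.23, 0.864 and 1.29 in PDL1/ATZ and 0.667, 1.8 and 1.2 in isotype. The isotype intervals, 0.268 to 1.59, 0.542 to 6.84 and 0.571 to 2.56, were too wide to show or exclude a shift. Psmb9 over Psmb6 was 0.286, 0.286 and 0.25 in PD1/PEM, 0.28, 0.5 and 0.641 in PDL1/ATZ and 0.2, 0.267 and 0.148 in isotype. In isotype cardiomyocyte-enriched cells Psmb8 had 0 UMIs.

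**Figure D4:**
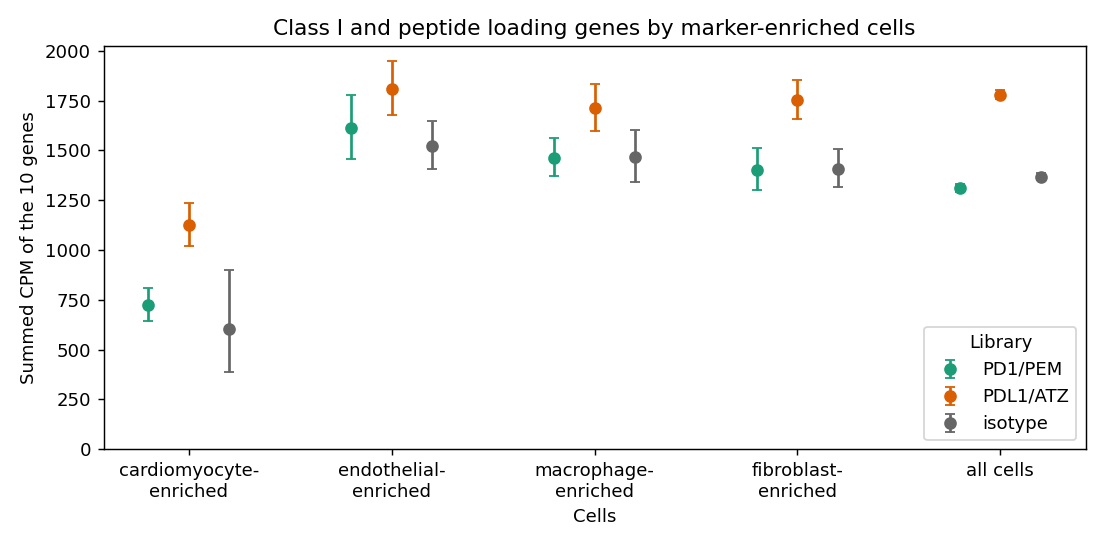
Summed level of the 10 genes in CPM in cells with an excess of cardiomyocyte, endothelial, macrophage or fibroblast markers and over all cells, in the PD1/PEM, PDL1/ATZ and isotype libraries; bars are exact 95% intervals for counting error. Cardiomyocyte-enriched cells are the lowest group in each library, at 723, 1124 and 604 CPM. In these cells the held-out endothelial, macrophage and fibroblast genes had median ratios to other cells of 0.549, 0.470 and 0.597.

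Over the 12 sums of 4 cell groups in 3 libraries, the genes whose log2 level followed the summed 10 genes most closely among 11810 genes were Acvrl1, an endothelial receptor of BMP ligands, with Pearson r of 0.978, Pcbp3 (0.970), Arrdc1 (0.970), Arpc1b, a subunit of the actin-nucleating Arp2/3 complex (0.968), and Lingo2 (0.968). The points share libraries and cell groups, so r describes these sums only. The isotype cardiomyocyte-enriched sum holds 39737 UMIs. A gene such as Arrdc1, at 6.06 CPM over all isotype cells, is expected to have few UMIs or none there. The part of such low counts in r was not tested. Acvrl1 had 51.5 CPM in PD1/PEM, 71.0 CPM in PDL1/ATZ and 52.2 CPM in isotype, the same order as B2m with PDL1/ATZ highest.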

How the data were processed

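Droplet 3′ single-cell RNA libraries of 3 groups were analysed, 1 library of 3 pooled hearts each. Per the labels' protocols hearts were enzymatically digested. Cell Ranger and Seurat, with the build mm10, are named per the submitters' processing notes. For their versions, the annotation and any filter on cells, nothing is given in the sources used. The values that the authors deposited are counts, whole numbers of UMIs for each gene in each cell, not normalized. No cell had over 2499 genes.

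The 10 genes, the lists of other genes and the markers were chosen with earlier results of these data known. UMIs were summed over all deposited cells and scaled to CPM. Intervals, at 95%, are exact Poisson for sums, Clopper-Pearson for shares and conditional binomial for ratios, and cover counting error only. A pseudocount of 0.5 was added before log2 ratios were taken. Genes with at least 50 UMIs over 2 libraries were counted past 1.5-fold. A count test between groups was not made, since each group has 1 library; the 95% interval of a count of 0 reaches beyond the 3 counts used as a floor.

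Named genes were the 10 members, Psmb5, Psmb6, Psmb7, Psmb10, Nlrc5, the 3 pathway genes farthest from a ratio of 1 in each direction and comparison, and the 5 genes most like the summed members over 12 sums. These sums used the groups of cells with an excess of markers, in place of the marker count first planned (at least 3 distinct markers), and need at least 5 marker UMIs. Genes to check the groups were chosen after the groups had been seen, as were the letters of the NF-kB and short ISRE motifs, the first of which had been searched in a stricter form. Doublets were not called; the 5% deepest cells were left out as an alternative. Alternatives were other totals, size factors, cell filters, minimum UMIs, thinning to 700 UMIs per cell and class rules. The ratio step was tested on simulated data for PD1/PEM and PDL1/ATZ against isotype, over 12725 genes, where 95.5% of intervals held the true ratio in each. The counts were Poisson draws from the isotype profile, with 200 genes changed by 2-fold up or down. The intervals assume such counts, so a share near 95% was set by the design. No spread between hearts and no shift in mitochondrial UMIs was simulated, so the check covers the arithmetic only. Positions are from GENCODE for GRCm38 and promoters from RefSeq for GRCm38.p6. Python 3.11.15, numpy 2.4.6, scipy 1.17.1, pandas 2.3.3 and matplotlib 3.10.9 were used.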

Additional observations from a re-analysis of the deposited data

How the results depend on the processing

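No paired analysis was possible because each group is 1 library. Of 83 results, 496 values were computed under alternatives; the causes of the shifts were not tested. Depth limits the cell groups, and those with under 10 UMIs of the 10 genes gave no value under an alternative.

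Without mitochondrial genes the summed level was 1771, 1930 and 1850 CPM in PD1/PEM, PDL1/ATZ and isotype, and over symbols read in all libraries 1797, 1966 and 1878 CPM. It was 1346, 1872 and 1416 CPM with each cell counting the same, and 1342, 1825 and 1401 CPM without the 5% deepest cells. In cells under a limit of 25% mitochondrial UMIs it was 1151 CPM in PD1/PEM and 1263 CPM in isotype. That limit lies below the median cell of PD1/PEM and of isotype and above that of PDL1/ATZ.

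The summed ratio in PDL1/ATZ was 1.04 without mitochondrial genes, 1.05 over shared symbols and 1.41 under the mitochondrial limit, and was reversed at 0.846 with median-of-ratios size factors; in PD1/PEM it was 0.911 under the mitochondrial limit. Reversed single genes were Tapbp in PD1/PEM (0.942, mitochondrial limit) and, in PDL1/ATZ, H2-K1 (0.855 without mitochondrial genes, 0.858 over shared symbols, 0.693 with size factors), H2-D1 (0.988, 0.992, 0.802), Tapbp (0.985, 0.989, 0.799), B2m (0.894, size factors) and Tap1 (0.900, size factors). In PDL1/ATZ 2 of the 10 genes were at least 1.5-fold higher under those 3 scalings, where 32.3%, 32.7% and 18.9% of all genes were higher and 11.6%, 11.5% and 20.1% lower (shares added after the data were seen); pathway genes were 5, 5 and 2 higher and 3, 3 and 7 lower. With a minimum of 10 UMIs, PD1/PEM had 3 pathway genes higher, and 9.40% of all genes higher and 9.23% lower; with no minimum these were 15.6% and 16.1%, and 11.4% were lower in PDL1/ATZ.

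Under the marker excess of 2-fold, a rule added after the data were seen, the class over other cells was 0.544, 1.23 and 1.07 for cardiomyocyte, endothelial and fibroblast in PD1/PEM, 1.02 and 0.984 for endothelial and fibroblast in PDL1/ATZ, and 0.441, 1.12 and 1.03 in isotype. At 3-fold it was 1.497 and 1.03 (endothelial, fibroblast) in PD1/PEM. It was 0.453, 1.13 and 1.0001 (cardiomyocyte, endothelial, fibroblast) in PDL1/ATZ, and 1.31 and 1.09 (endothelial, fibroblast) in isotype. The 1.0001 is no difference, though it lies across 1 from the class by marker counts. By marker counts in PDL1/ATZ, endothelial was 0.944 with at least 4 markers and 0.95003 after thinning to 700 UMIs, and fibroblast 0.961 with at least 2 markers and 0.791 with 4. Within endothelial-enriched cells the ratio to isotype at an excess of 2-fold and 3-fold was 1.06 and 1.09 in PD1/PEM and 1.19 and 1.12 in PDL1/ATZ. The classes by marker counts differ from the groups of the report. In the endothelial class of PDL1/ATZ the ratio was 1.28, and 1.03 without mitochondrial genes. In the fibroblast class of PDL1/ATZ it was 1.15, 1.28 thinned and, reversed, 0.922 without mitochondrial genes. Under the mitochondrial limit PD1/PEM had 0.219 for Psmb9 over Psmb6, 0.439 for Psmb10 over Psmb7 and an H2-K1 share of 51.8%.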
